A study of Drosophila melanogaster with 12 samples.

Results

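Of the 16637 transcripts measured in whole virgin flies of Drosophila melanogaster, 119 separated the mating regimes in males while their mean level in females differed little between regimes. They were chosen by 3 conditions on the measured values: all 3 monogamy males lay on 1 side of all 3 polygamy males, the male means differed by at least 0.5 on the log2 scale, and the female means differed by less than 0.4. Of the 119, 79 were higher in monogamy males and 40 were higher in polygamy males. The differences between regimes in males and in females therefore chose these transcripts, and they are given as a description without a test.

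Expression was measured on single-colour NimbleGen arrays in total RNA of monogamous males, polygamous males, monogamous females and polygamous females, all virgin and 4 days old. The flies came from 6 populations of 1 genetic background, labelled IV, of which 3 had been kept for 65 generations under monogamy and 3 under polygamy. From every population came 1 sample of each sex, and each of the 4 groups held 3 arrays. Values are log2 expression values per transcript, on which a difference of 1 is a doubling of the signal. The number of flies behind each sample is not given in the sources used here.

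When each female is housed with a single male, males no longer compete for mates and females no longer choose among them, and the interests of the sexes are brought closer together. Under polygamy male competition goes on after mating, through sperm and the seminal fluid proteins of the accessory glands. Many fly transcripts differ in level between the sexes, largely through testis, accessory gland and ovary, and a change of sexual selection can shift their levels in either sex. The design asks how expression evolved under each regime.

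The transcripts carry FlyBase identifiers. Symbols for 44 of the 16637 could be found in a RefSeq gene table (Release 6) and for 0 of the 119, so no member is given a gene or a role here. Of 50 marker genes of reproductive and other tissues, 0 had a transcript that could be matched, and the labelled whole fly and sex could not be set against marker genes. Pairs of male arrays correlated at 0.892 or more and pairs of arrays of unlike sex at 0.763 or less, while the least alike females correlated at 0.683, below some pairs of unlike sex. Polygamy female 3 stood apart, with a mean correlation of 0.733 with the other females, against 0.894 to 0.924 for the rest. Among males, monogamy male 1 had the lowest mean correlation with the others, 0.925 against 0.958 to 0.969. In whole flies, fewer cells of a type and less RNA per cell cannot be told apart.

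Most transcripts that separated the male regimes by at least 0.5 also had female means at least 0.4 apart, as did 68.4% of all transcripts. The male groups did not overlap in 684 transcripts that were higher in monogamy males, 4.11% of all transcripts, and in 606 that were higher in polygamy males, 3.64% of all. A male difference of at least 0.5 was reached by 369 and 238 of these. The limit on the female difference then removed 290 of the 369, of which 264 were also higher in monogamy females, and left 79. It removed 198 of the 238, of which 185 were also higher in polygamy females, and left 40. The set is the smaller share of the transcripts that separated the male regimes at this size.

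**Figure D1:**
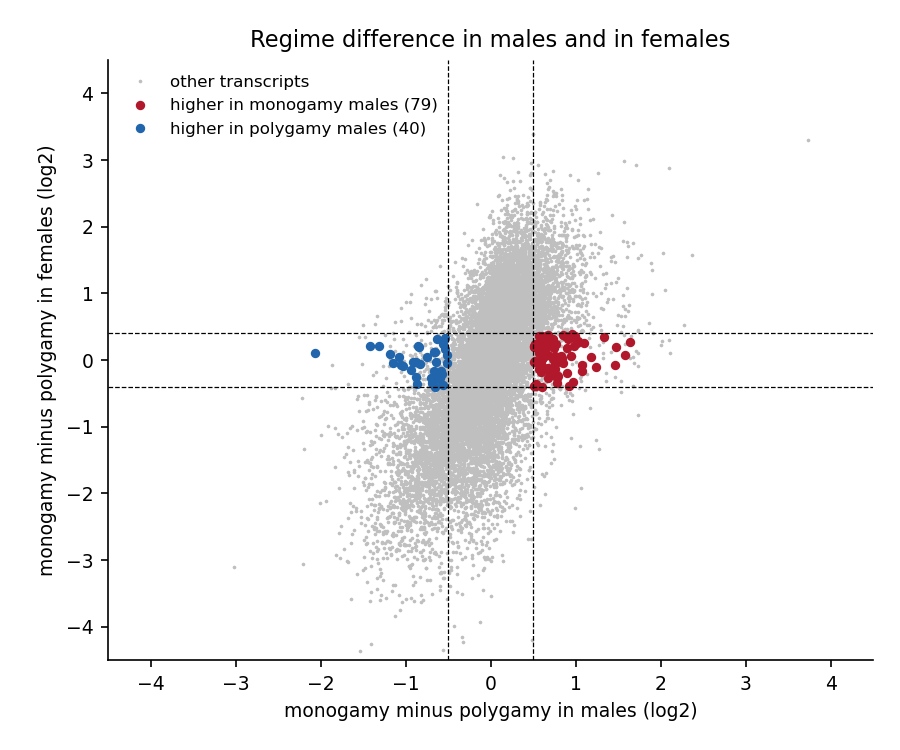
Difference between regimes (monogamy minus polygamy, log2) in males on the x axis and in females on the y axis for 16637 transcripts, with dashed lines at 0.5 and 0.4. The 79 red and 40 blue points lie in the bands beside the centre. The limit on the female difference removed 290 and 198 transcripts whose male groups did not overlap. Of these, 264 and 185 lie beyond the bands on the side of the same sign.

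At the limits, the values run on without a break. The smallest male difference in the set was 0.512 among those higher in monogamy males, and the nearest transcript outside had 0.495. Among those higher in polygamy males the corresponding values were -0.507 and -0.492. On the female side, the largest differences inside were -0.3982 and -0.3989, and the nearest outside were 0.414 and -0.4001.

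The size of the male difference was moderate in both directions. Among the 79 transcripts higher in monogamy males it had a median of 0.73 and ranged from 0.51 to 1.64. Among the 40 higher in polygamy males it had a median of -0.68 and ranged from -2.07 to -0.51. The median over all transcripts was 0.02, and the median absolute difference over all was 0.23. The gap between the lowest value of the higher regime and the highest value of the lower regime was often small, with a median of 0.22 for the 79 and 0.16 for the 40.

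No transcript passed the test of the regime difference in males (limma over all transcripts, adjusted p under 0.05, 0 of 16637, 0%). At an unadjusted p under 0.05 there were 220 (1.32%), of which 148 were higher in monogamy males (0.89%) and 72 were higher in polygamy males (0.433%). The members held 35 of the 148 and 17 of the 72, and nothing is read from this, since the rule used the same contrast. The adjusted p of each of the 119 was 1. Whether the regime difference was larger in males than in females was tested as the interaction of sex and regime, and 0 transcripts passed (0% of all), with 593 at an unadjusted p under 0.05 (3.56%). The smallest adjusted p of an interaction among the 119 was 0.862. A difference in males and little difference in females thus describes these arrays, and a sex-limited effect of regime was not shown for any of the 119.

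In each direction, the 2 transcripts with the largest male differences are described first. FBtr0083784 stood at 8.45, 9.27 and 8.09 in monogamy males 1, 2 and 3, against 7.23, 7.37 and 6.28 in polygamy males. The 3 monogamy males all lay above the 3 polygamy males, by at least 0.71, and the difference of the means was 1.64 (SE 0.40). In females it stood at 8.94, 8.99 and 9.09 under monogamy and at 8.42, 8.47 and 9.34 under polygamy. The female groups overlapped through polygamy female 3 alone, which held the highest value of all, and without that array the female difference was 0.56 in place of 0.27.

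FBtr0072358 had 8.68, 8.75 and 7.26 in monogamy males and 6.77, 6.78 and 6.39 in polygamy males, a difference of 1.59 (SE 0.73). Monogamy male 3 stood far below the other monogamy males and still above every polygamy male. In females the transcript had 9.18, 8.35 and 8.16 under monogamy, against 7.02, 8.11 and 10.34 under polygamy, a difference of 0.08 (SE 0.73). The polygamy females held both the lowest and the highest female value, and their SD was 1.69. Without polygamy female 3 the female difference was 1.00, and without polygamy female 1 it was -0.66, so the near equality of the female means rested on these arrays.

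FBtr0091784 had the largest male difference of the 119. It stood at 5.52, 5.55 and 7.70 in monogamy males and at 7.76, 8.79 and 8.43 in polygamy males, a difference of -2.07 (SE 0.57). Monogamy male 3 lay only 0.06 below the lowest polygamy male, and the separation came from the low values of monogamy males 1 and 2. In females it was dim, with 4.61, 4.17 and 4.43 under monogamy and 3.75, 4.10 and 5.06 under polygamy. In 4 of the 6 females the level was under the 5th percentile of the array, where differences are hard to measure. Without polygamy female 3 its female difference was 0.48 in place of 0.10, over the limit and opposite to the male direction.

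FBtr0081077 had 7.17, 7.56 and 8.62 in monogamy males and 9.29, 8.91 and 9.41 in polygamy males, a difference of -1.42 (SE 0.42). Here too monogamy male 3 lay nearest to the polygamy males. In females the values were 6.54, 6.98 and 6.63 under monogamy and 6.95, 6.81 and 5.74 under polygamy, and the groups overlapped. Over all 12 choices of an array to leave out, the male difference ranged from -1.83 to -1.11 and the female difference from -0.16 to 0.44.

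**Figure D2:**
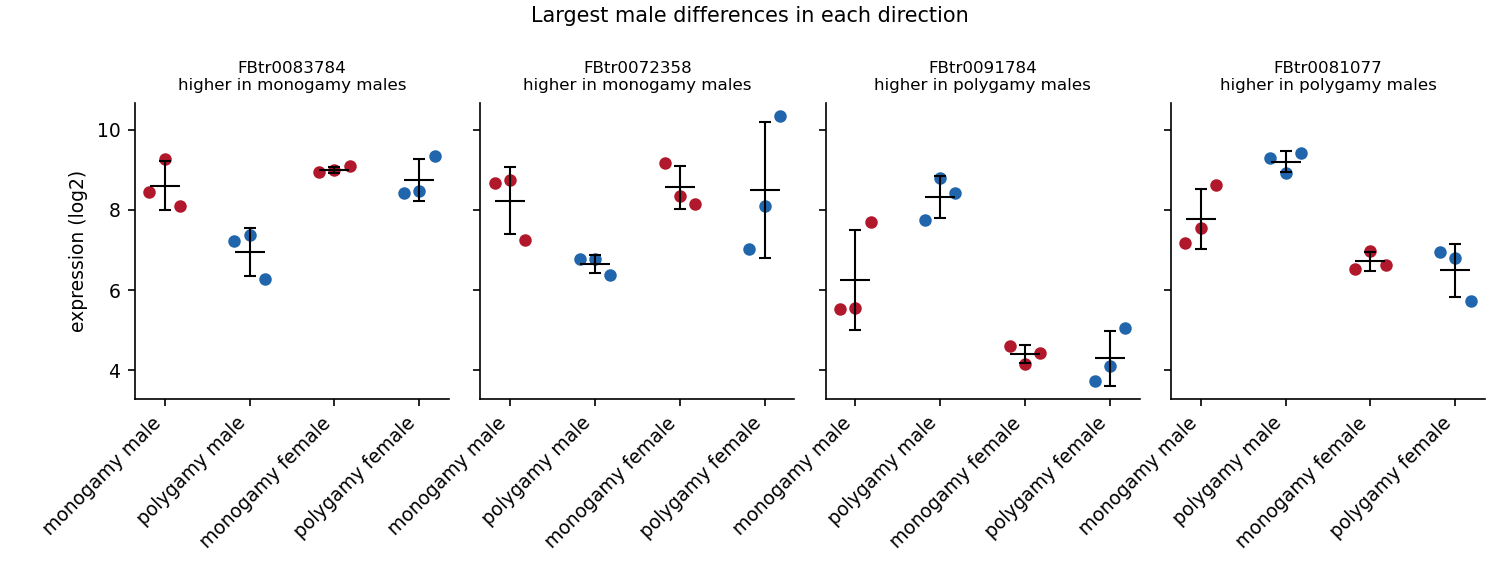
Log2 expression (y axis) of the 2 transcripts with the largest male difference in each direction, with a point per array (replicates 1 to 3 from left to right), monogamy in red and polygamy in blue, and the group mean ± SD in black (n = 3). The male groups do not overlap in any panel, and polygamy female 3 is the highest or the lowest female in each.

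Across all members, single arrays carried much of the spread within the male groups. For the 79 transcripts higher in monogamy males, the mean level was 8.17, 8.13 and 7.77 in monogamy males 1, 2 and 3 and 7.35, 6.99 and 7.37 in polygamy males. Polygamy male 2 was the lowest polygamy male in 52 of the 79 (65.8%), while over all transcripts it was lowest in 37.2%. Monogamy male 3 was the lowest monogamy male in 54 (68.4%), against 51.5% over all. Without polygamy male 2 the median difference of the 79 was 0.62 in place of 0.73, 65 of the 79 still reached 0.5, and in 13 the difference shrank by more than 1.5 times. Without monogamy male 1 the median was 0.70, 60 reached 0.5, and in 13 it shrank by more than 1.5 times.

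For the 40 transcripts higher in polygamy males, the mean level was 7.55, 8.02 and 8.12 in monogamy males and 8.64, 8.85 and 8.61 in polygamy males. Monogamy male 1 was the lowest monogamy male in 28 of the 40 (70%), against 38.5% of all transcripts. Without it the median difference was -0.51 in place of -0.68, 21 of the 40 still reached 0.5 in size, and in 14 the difference shrank by more than 1.5 times. No member changed the sign of its male difference when any single male array was left out. With groups that do not overlap, this follows from how the set was chosen.

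**Figure D3:**
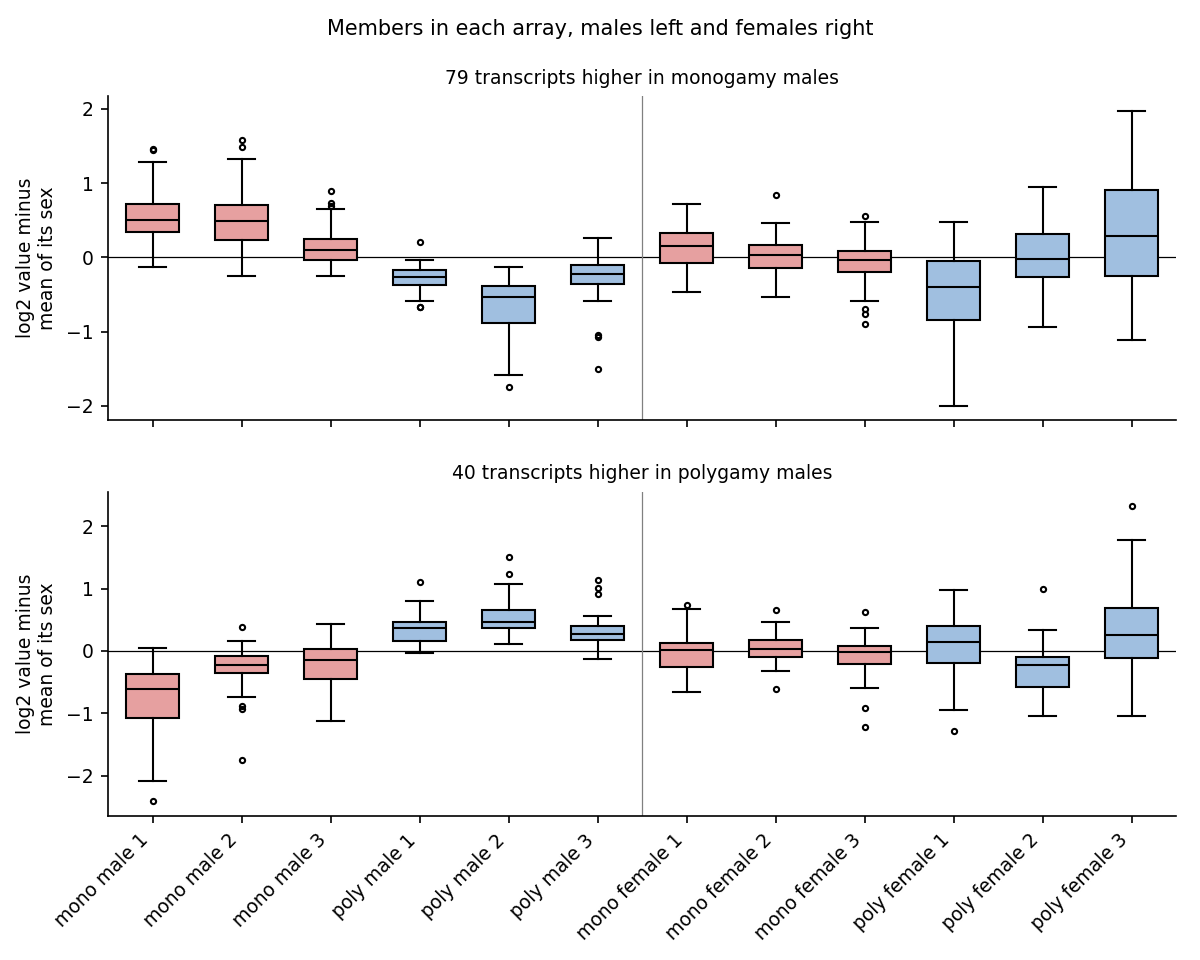
Log2 value of each member minus its mean over the 6 arrays of the same sex (y axis), as a box per array with the median, quartiles and whiskers to 1.5 times the interquartile range, monogamy in red and polygamy in blue. The upper panel holds the 79 transcripts higher in monogamy males and the lower panel the 40 higher in polygamy males. Monogamy male 1 lies lowest in the lower panel, and polygamy female 3 has the widest boxes.

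In females the regimes overlapped for nearly all members, and the polygamy females were spread widely. The female groups overlapped in 76 of the 79 and in 39 of the 40. The other 3 and 1 were higher in all monogamy females, and 0 were higher in all polygamy females. Over all transcripts, the monogamy females lay wholly above the polygamy females in 23.2% and wholly below them in 15%. The test in females passed 10 of all transcripts (limma, adjusted p under 0.05, 0.0601%) and 0 members. The rule used these values, and nothing is read from the counts. The SD of the 3 polygamy females had a median of 0.55 among the 79 and 0.53 among the 40, while that of the 3 monogamy females had a median of 0.21 and 0.24. The corresponding medians over all transcripts were 0.68 and 0.24.

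Among the 79, polygamy female 1 and polygamy female 3 pulled the polygamy mean in opposite directions. Polygamy female 1 was the lowest polygamy female in 47 of the 79 (59.5%), against 21.5% over all transcripts, and lay a median of 0.46 below the median of the other 5 females. Polygamy female 3 was the highest polygamy female in 46 (58.2%), against 44.3% over all, and lay a median of 0.39 above the others. Without polygamy female 3, the female difference of the 79 had a median of 0.27, against 0.14 over all transcripts, and 27 of the 79 (against 33.4% of all transcripts) reached 0.4 in the direction seen in males. A further 4 reached it in the opposite direction (against 25.8% of all). Without polygamy female 1 the median turned to -0.09, against 0.03 over all transcripts. Then 1 of the 79 reached 0.4 in the direction seen in males and 16 in the opposite direction (against 35.4% and 35.5% of all). Without polygamy female 2 these counts were 14 and 11 (against 37.1% and 37.3% of all), and the median was 0.14. The sign of the median female difference thus depended on which polygamy female was left out. The rule kept only female differences under 0.4, so nothing is read from counts below the share over all.

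The female difference of the 40 transcripts higher in polygamy males had a median of 0.06 without polygamy female 3. Of the 40, 3 then reached 0.4 in size in the direction seen in males and 10 in the opposite direction, against 25.8% and 33.4% of all transcripts. Without polygamy female 2 the median was -0.22, and 12 of the 40 reached 0.4 in the direction seen in males (against 37.3% of all) and 0 in the opposite direction (against 37.1%). None of these counts stands above the share over all transcripts, and nothing is read from this, since the rule kept only female differences under 0.4. With any of the 12 arrays left out in turn, 31 of the 79 and 11 of the 40 always kept a female difference under 0.4.

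**Figure D4:**
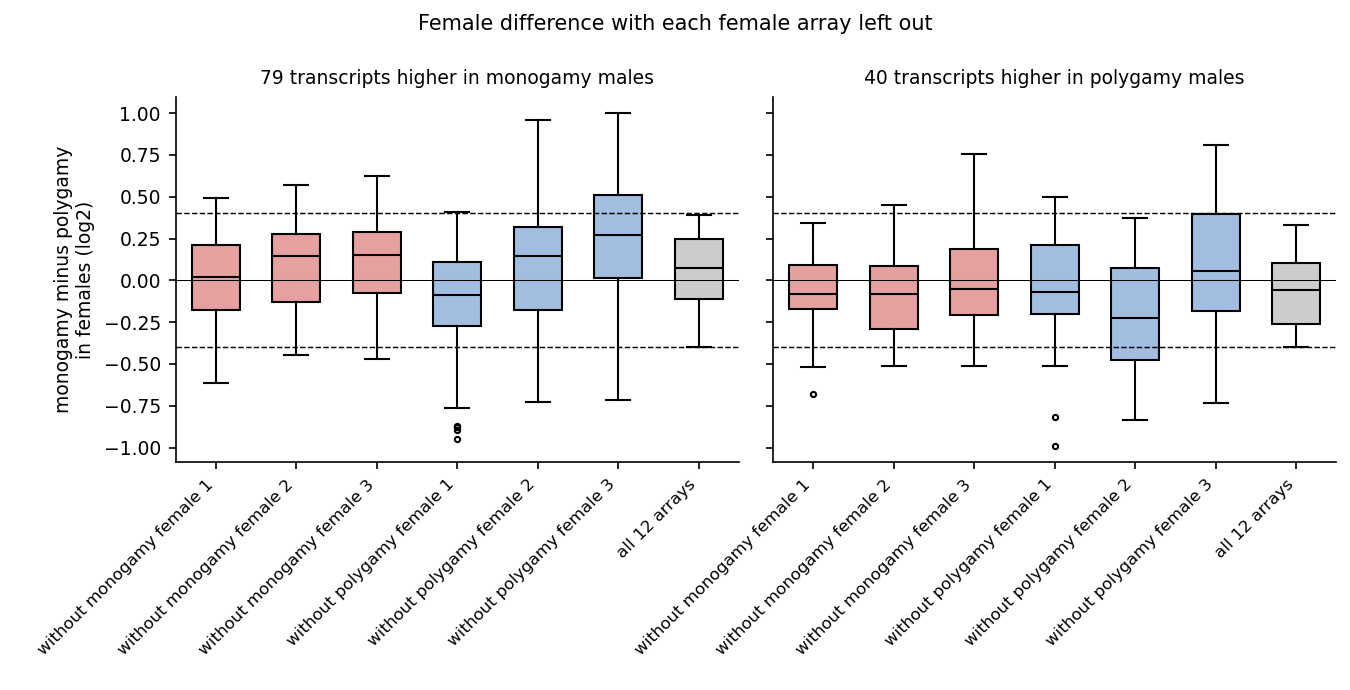
Difference between regimes in females (monogamy minus polygamy, log2, y axis) of the members with 1 female array left out at a time and, in grey, with all 12 arrays, as boxes with the median, quartiles and whiskers to 1.5 times the interquartile range. Dashed lines mark 0.4 and -0.4, and without polygamy female 3 the median of the 79 transcripts in the left panel is 0.27.

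Both conditions of size held with every array left out in turn for 13 of the 79 and for 5 of the 40. Of these, 1 per direction is given, chosen after the values were seen. FBtr0073312 had 8.08, 8.40 and 7.76 in monogamy males, against 7.17, 6.44 and 7.06 in polygamy males, a difference of 1.18 (SE 0.33). In females it had 8.40, 8.26 and 7.76 under monogamy and 7.61, 8.09 and 8.58 under polygamy, and the groups overlapped. FBtr0089687 had the widest gap between the male regimes among the 40, 0.56. It stood at 10.74, 11.09 and 10.88 in monogamy males and at 11.76, 11.93 and 11.65 in polygamy males, a difference of -0.88 (SE 0.22). The female values were 10.16, 10.01 and 9.95 under monogamy and 10.11, 9.85 and 10.23 under polygamy, so that the regimes were mixed among females. Whichever array was left out, the female difference stayed between -0.19 and 0.29 for FBtr0073312 and between -0.13 and 0.06 for FBtr0089687. Both were picked for keeping the conditions, on values that the rule used, so nothing is read from this.

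The difference between the sexes, averaged over the regimes, was not used to choose the transcripts, and it set the directions apart. A transcript was called sex-biased at an adjusted p under 0.05 and a log2 difference of at least 1 (limma over all transcripts). The adjusted p also depends on the spread within groups, which the choice of transcripts touched. The SE of the male difference, which rests on that spread, had medians of 0.37 (the 79) and 0.36 (the 40), against 0.43 over all. The shares called are thus a description and no test. Of the 79 transcripts higher in monogamy males, 2 were male-biased and 36 were female-biased (2.53% and 45.6%). Of the 40 higher in polygamy males, 19 were male-biased and 8 were female-biased (47.5% and 20%). Over all transcripts, 16.4% were male-biased and 26.1% were female-biased. The median of the male minus female difference was -0.99 for the 79 and 0.55 for the 40, against -0.34 over all transcripts.

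Transcripts that separated the regimes in both sexes were less uneven, except that male-biased ones were nearly as scarce among those higher under monogamy. They met the same 2 conditions in males and had a female difference of at least 0.4 in the same direction. Their female groups were free to overlap. Of the 264 that were higher under monogamy, 3.03% were male-biased and 28% female-biased. Of the 185 that were higher under polygamy, 22.2% were male-biased and 36.2% female-biased. Whether these shares differ from those of the 79 and the 40 was not tested.

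**Figure D5:**
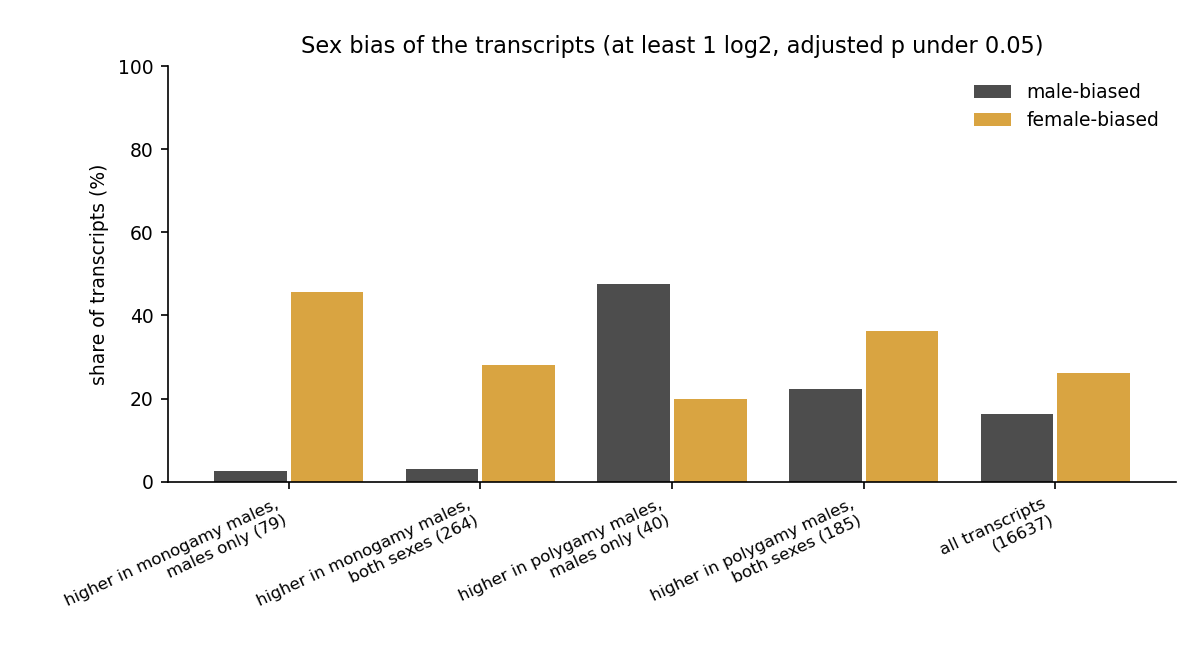
Share of transcripts (y axis, %) that were male-biased (dark) and female-biased (yellow) among those separating the regimes in males only, those separating them in both sexes, and all 16637 transcripts, with the number of transcripts in brackets. The 79 transcripts higher in monogamy males hold 45.6% female-biased and the 40 higher in polygamy males hold 47.5% male-biased transcripts. Chosen again without monogamy male 1, the lists held 25.7% and 10.9%.

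These shares moved with monogamy male 1. In that array, 39 transcripts that were under 5 in the other 5 males and over 10 in females had a median excess of 3.36 over the median of those males. The same measure, taken over the 27 to 37 such transcripts of each other male, was 0.34 or less. The part of this in the shares was not tested. Over the 2728 male-biased transcripts its median excess was -0.26, against -0.02 to 0.08 in the other males. Over the 4334 female-biased transcripts it was 0.40, and other males were off centre too, with 0.23 in polygamy male 2 and -0.19 in monogamy male 3. Among the 36 female-biased transcripts higher in monogamy males, monogamy male 1 held the highest monogamy value in 21 (against 47.1% of all transcripts). Among the 19 male-biased transcripts higher in polygamy males, it held the lowest monogamy value in 18 (against 38.5% of all). The mean level of the 19 was 8.07, 8.91 and 9.12 in monogamy males 1, 2 and 3 and 9.54, 9.67 and 9.44 in polygamy males.

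The choice of transcripts and the test of sex were repeated without monogamy male 1. Female-biased transcripts then outnumbered male-biased ones in both directions, as they did over all transcripts with every array kept. Of the 140 transcripts then higher in monogamy males, 6.43% were male-biased and 25.7% female-biased. Of the 55 then higher in polygamy males, 10.9% were male-biased and 43.6% female-biased. Over all transcripts, with every array kept, 16.4% were male-biased and 26.1% female-biased. The female-biased share of the 140 thus lay near the share over all transcripts, and that of the 55 lay above it. The male-biased share was below that over all transcripts in both lists. Of the original members, 60 of 79 and 21 of 40 were chosen again. With any other array left out, 38.3% to 56.4% of the newly chosen transcripts higher in monogamy males were female-biased. Of those higher in polygamy males, 28.1% to 51.4% were then male-biased. In this direction the shares lay close together without polygamy male 1 (29.2% male-biased, 27.8% female-biased) and without monogamy male 2 (28.1% and 24%). Of the 13 and 5 members that met both conditions of size with every array left out, 1 and 1 were male-biased and 9 and 0 were female-biased.

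Within each class the sex difference varied widely. Among the 79, FBtr0078489 had the largest female bias, with 9.91, 8.20 and 8.37 in monogamy males and 8.19, 7.90 and 8.14 in polygamy males, against 11.75, 12.10 and 11.93 in monogamy females and 12.50, 12.18 and 11.69 in polygamy females. Males and females did not overlap, and the difference was -3.57 (SE 0.29, limma, adjusted p = 2.38e-06). Its male regimes were parted by only 0.01, and monogamy male 1 alone stood well above the rest of the males.

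FBtr0076978 had the largest male bias among the 79. It stood at 11.31, 11.33 and 11.09 in monogamy males and at 10.70, 10.38 and 10.75 in polygamy males, against 9.28, 8.85 and 9.05 in monogamy females and 8.52, 8.83 and 8.99 in polygamy females. The sex difference was 2.00 (SE 0.16, limma, adjusted p = 2.27e-06). Monogamy male 1 did not stand out among the males here.

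Among the 40, FBtr0078482 had the largest male bias. Its values were 11.04, 11.78 and 11.71 in monogamy males and 12.33, 12.18 and 12.12 in polygamy males, against 6.14, 5.94 and 4.88 in monogamy females and 4.84, 6.79 and 6.15 in polygamy females. The sex difference was 6.07 (SE 0.35, limma, adjusted p = 1.45e-07), and every male lay above every female. Monogamy male 1 was the lowest male. FBtr0070204 had the largest female bias among the 40, with 3.96, 4.39 and 3.93 in monogamy males and 4.56, 4.82 and 4.57 in polygamy males, against 7.35, 6.87 and 7.04 in monogamy females and 7.37, 6.02 and 7.16 in polygamy females. The difference was -2.60 (SE 0.24, limma, adjusted p = 6.48e-06). It was dim in males, under the 5th percentile of the array in 2 of the 6.

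The members were dimmer than the array as a whole. The mean level in males had a median of 7.84 among the 79 and of 8.36 among the 40, against 10.12 over all transcripts. This was not particular to the members. Transcripts that separated the regimes in both sexes had medians in males of 8.97 (higher under monogamy) and 8.27 (higher under polygamy). In females the medians of the 79 and the 40 were 8.37 and 6.96, against 10.10. Of the 79, 28 lay below the 25th percentile of the array in every male (35.4%), and of the 40, 10 did so (25%), against 18.8% of all transcripts. In every female, 21 of the 79 and 17 of the 40 lay below it (26.6% and 42.5%), against 11.9% of all. The 19 male-biased members higher in polygamy males had a median level of 8.80 in males and 5.79 in females, and the 8 female-biased ones 5.31 in males and 6.96 in females.

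Some members had nearly the same values and should not be taken for separate observations. Correlations over the 12 arrays span both sexes, and a sex difference that members share raises them. FBtr0100174, FBtr0086584 and FBtr0086582, all higher in monogamy males, correlated at 0.995 to 0.998 over the 12 arrays and differed from each other by a mean of 0.08 to 0.10. FBtr0086923 and FBtr0086924 correlated at 0.998 and differed by a mean of 0.27. FBtr0078859 correlated at 0.992 with FBtr0074332 and at 0.994 with FBtr0074163, with mean differences of 0.21 and 0.48. All of these were female-biased, and the shares of sex-biased members above count each of them. FBtr0072358, described above, correlated at 0.981 with FBtr0070720, with a mean difference of 0.38, and neither of them was called sex-biased. Joining members that correlated at 0.98 or more and differed by a mean of at most 0.5 left 73 sets among the 79 and 40 among the 40. The files do not say whether such transcripts share a gene or probes. These pairings, and the pair that follows, were chosen after their values were seen.

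Members with consecutive identifiers lay in opposite directions in a single case. FBtr0082101 stood at 12.27, 11.87 and 11.30 in monogamy males and at 12.59, 12.64 and 12.80 in polygamy males, a difference of -0.87 (SE 0.30). FBtr0082102 stood at 11.15, 11.09 and 11.01 in monogamy males and at 10.71, 9.90 and 10.98 in polygamy males, a difference of 0.55 (SE 0.43). The level of the first less that of the second was 1.12, 0.78 and 0.29 in monogamy males and 1.88, 2.74 and 1.83 in polygamy males. That these male values do not overlap follows from how the set was chosen, and nothing is read from it. In females the same measure was 0.55, 0.14 and -0.16 under monogamy and 0.54, -0.36 and 1.91 under polygamy, with overlap. The male regimes were parted by 0.32 in the first and by 0.03 in the second.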

How the data were processed

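Per the submitters' processing notes, the authors made the deposited log2 values with RMA. Its version, the annotation release and which arrays entered 1 normalization were not given in these sources, and the log2 scale was taken from the range of the values. All 12 columns were matched to a sample, and no filter or further normalization was applied. Arrays have no read depth, and their number limits the precision. The populations are separate per the labels.

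The conditions were applied to the deposited values. All 16637 transcripts were fitted with limma 3.58.1 (lmFit, eBayes; R 4.3.3) in 4 groups over 12 arrays, so that the spread of females entered the tests in males, with Benjamini-Hochberg adjustment at 0.05. The members and lists were chosen with earlier results of these data known. The named transcripts are the 2 with the largest male difference and those with the largest sex difference on each side, per direction. Others are stated as chosen later. The fit and the choice were tested on simulated data.

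Male and female samples of a population share its label, which pairs them. Their deviations from the group means correlated at 0.53, -0.07 and 0.40 in monogamy and at 0.09, 0.07 and -0.18 in polygamy populations. A block for population (as a fixed term, or random with statmod 1.5.0), other normalizations, filters and limits, and leaving out each array were alternatives. Repeating the choice of transcripts together with the sex test was added after the data were seen.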

Additional observations from a re-analysis of the deposited data

Results flagged for a closer look

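FBtr0290217 was the only member whose regimes separated in opposite directions in males and females. It stood at 6.99, 6.93 and 6.97 in monogamy males and at 7.39, 7.94 and 7.15 in polygamy males, against 5.67, 5.76 and 5.58 in monogamy females and 5.42, 5.30 and 5.28 in polygamy females. The difference between the male and the female regime difference was -0.86, which did not pass (limma, adjusted p = 0.862). Groups of 3 arrays are too small for a check of single outlying values.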

How the results depend on the processing

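The regime difference in males gave 0 calls under every alternative run. In females the number of calls, 10, was 1 after quantile normalization (of the 12 arrays together and of each sex apart), 0 with female arrays fitted alone, and 1 to 2080 with an array left out, the highest without polygamy female 2 and the next, 201, without polygamy female 1. The interaction gave 1 call with dim transcripts left out and 0 to 7 with an array left out, the highest without polygamy female 1. With population as a random replicate block, which follows the pairing of the sexes, it gave 1 call, and no other count moved by over 1.5 times. With population as a fixed replicate block, calls were counted for the sex difference alone, and none of these counts moved by over 1.5 times. The interaction was not counted with that fixed block.

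The members numbered 47 and 22 (higher in monogamy and in polygamy males) with dim transcripts left out, 12 and 8 at a male difference of at least 1, and 41 and 20 at a female difference under 0.2. Leaving out an array gave 59 to 220 and 37 to 192. Of the 79 and 40 members, 77 and 38 were chosen again without monogamy male 3, where the lists were longest, and 48 and 27 without polygamy female 3. Leaving out a male array lets more transcripts separate by construction. Quantile normalization kept the numbers similar, with 93 and 42 over all arrays and 85 and 41 by sex, but chose only 54 and 23, and 53 and 22, of the members again. Over all arrays, 20 of the 79 then reached a female difference of 0.4 in the direction seen in males, and the female median of the 40 was 0.22 in place of -0.06.

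With dim transcripts left out, 11 members higher in polygamy males were male-biased and 2 female-biased. By adjusted p alone, 6 members higher in monogamy males were male-biased. At a sex difference of at least 2, 3436 of all transcripts passed in place of 7062, with 1 male-biased and 9 female-biased members higher in monogamy males, and 12 and 2 higher in polygamy males. Repeating the choice without an array, an alternative added after seeing the data, gave 1.26% to 6.43% male-biased and 25.7% to 56.4% female-biased among those higher in monogamy males, and 10.9% to 51.4% and 12% to 43.6% among those higher in polygamy males. Without monogamy male 1 these shares were 6.43%, 25.7%, 10.9% and 43.6%. Among those higher in monogamy males, 4.09% were male-biased without polygamy male 2, 1.26% without polygamy male 3, 1.3% without monogamy female 2 and 1.33% without monogamy female 3. Among those higher in polygamy males, 28.1% were male-biased without monogamy male 2 and 29.2% without polygamy male 1, and 12% were female-biased without polygamy male 2 and 12.9% without polygamy male 3. The cause was not tested. The 3 arrays in a group limit the precision of each value.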
